A study of Mus musculus with 2 samples.

Results

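The 38 genes described here encode the enzymes of glycolysis, the membrane carriers for glucose and lactate, and the oxygen-sensing pathway of the hypoxia-inducible factors (HIF) with 5 of its target genes. They were taken by symbol: a gene was included where a probe set of the array was annotated to it alone. Of the 38, 35 had 81 such probe sets between them, and all 35 gave a signal above background on at least 1 array, out of 12584 genes measured in all. For Gpi1, Eno1 and Bnip3l no probe set was annotated to the gene alone, and they were not analysed here. Bnip3l shared its 3 probe sets with a pseudogene. Gapdh was read from the 3 Gapdh control probe sets of the array, as its other 3 probe sets were shared with pseudogenes or other genes.

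Glycolysis turns glucose into pyruvate in a series of cytosolic steps, several of which can be run by alternative isoforms encoded by separate genes, and lactate dehydrogenase then converts pyruvate to lactate. Endothelial cells are known for drawing much of their energy from this route. HIF is a dimer of an oxygen-sensitive alpha subunit and a stable partner. With oxygen present, prolyl hydroxylases mark the alpha subunit for destruction by the VHL ubiquitin ligase. When oxygen is short, the dimer binds DNA and raises transcription of glycolytic genes and of some of its own regulators.

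Total RNA came from 2 mouse cell lines described in the labels as endothelial, with 1 Affymetrix array each and no replicates. MS-1 derives from the microvessels of the pancreas and was kept in DMEM with 5% serum. SVEC4-10 derives from an axillary lymph node and was kept in DMEM with 10% serum, so that the effects of serum and of line cannot be told apart. The labels name no treatment, no genetic change and no oxygen level. Both lines are known to be immortalised with the SV40 large T antigen, and each is a line of long-cultured cells and not freshly isolated endothelium. A difference between single cultures has no replicate check, so none is given a p-value.

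Endothelial identity differed between the arrays. Of 12 endothelial markers, 11 were at least 4-fold higher in MS-1 and 0 in SVEC4-10, where 9 were below background. Their summed signal was 31766 in MS-1 and 209 in SVEC4-10. Pecam1 (CD31) gave 4777 against 1.27, which is below background, and Emcn, Nos3 and Esam likewise passed background in MS-1 only. Of 11 mesenchymal and mesothelial markers, 10 were measured and all 10 were at least 2-fold higher in SVEC4-10, with summed signals of 118 and 34995 in MS-1 and SVEC4-10. Among them, Upk3b, Dcn and the collagen genes Col1a1 and Col1a2 were below background in MS-1. The part of this difference in the results below was not tested. In such bulk RNA, fewer cells of a type and less RNA per cell cannot be told apart.

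Across the 35 measured members the arrays differed about as much as they did for genes in general. The median log2 ratio (SVEC4-10 over MS-1, so a positive value is higher in SVEC4-10) was -0.15, against 0.02 for all 12584 measured genes, and its SD over genes was 1.36 against 1.38. At least 2-fold higher in SVEC4-10 were 5 members (14.3%), where 15.3% of all measured genes passed this fold. At least 2-fold higher in MS-1 were also 5 members (14.3%), against 12.1% of all measured genes. At 4-fold the counts were 1 member in SVEC4-10 (2.86%) and 3 in MS-1 (8.57%), where 5.78% and 4.30% of all genes passed. The 2-fold shares lie near those of all measured genes, so the set as a whole did not stand apart at 2-fold. The 4-fold shares rest on 1 and 3 members. The account that follows concerns single members. The error of 1 log2 ratio, taken from how far probe sets for 1 gene disagree (1 SD), was 0.48 over 4814 genes and 0.24 over the 19 members that allowed it. It holds no variation between cultures. Of the 35 members, 12 (34.3%) lay within 1 such error of 0, against 45.9% of all measured genes, and 11 (31.4%) lay beyond 2 errors, against 28.8% of all.

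The members at least 2-fold higher in MS-1 were Egln3, Epas1, Slc2a1, Aldoa and Ankrd37. Those at least 2-fold higher in SVEC4-10 were Eno2, Arnt, Vhl, Slc2a3 and Ldhb. Scaling to the spiked poly-A controls lowered the ratios by 0.54 and changed the sign of Pfkm, Pdk3, Pfkfb4, Bnip3 and Aldoc. In that case Slc2a3, Ldhb and Vhl fell under 2-fold while Hk1, Pgk1, Pkm, Ldha, Hif1an and Ndrg1 came to be at least 2-fold higher in MS-1. Under that scaling 26.6% of all genes passed 2-fold towards MS-1 and 8.44% towards SVEC4-10, and the members' median stayed 0.17 below that of all genes.

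**Figure D1:**
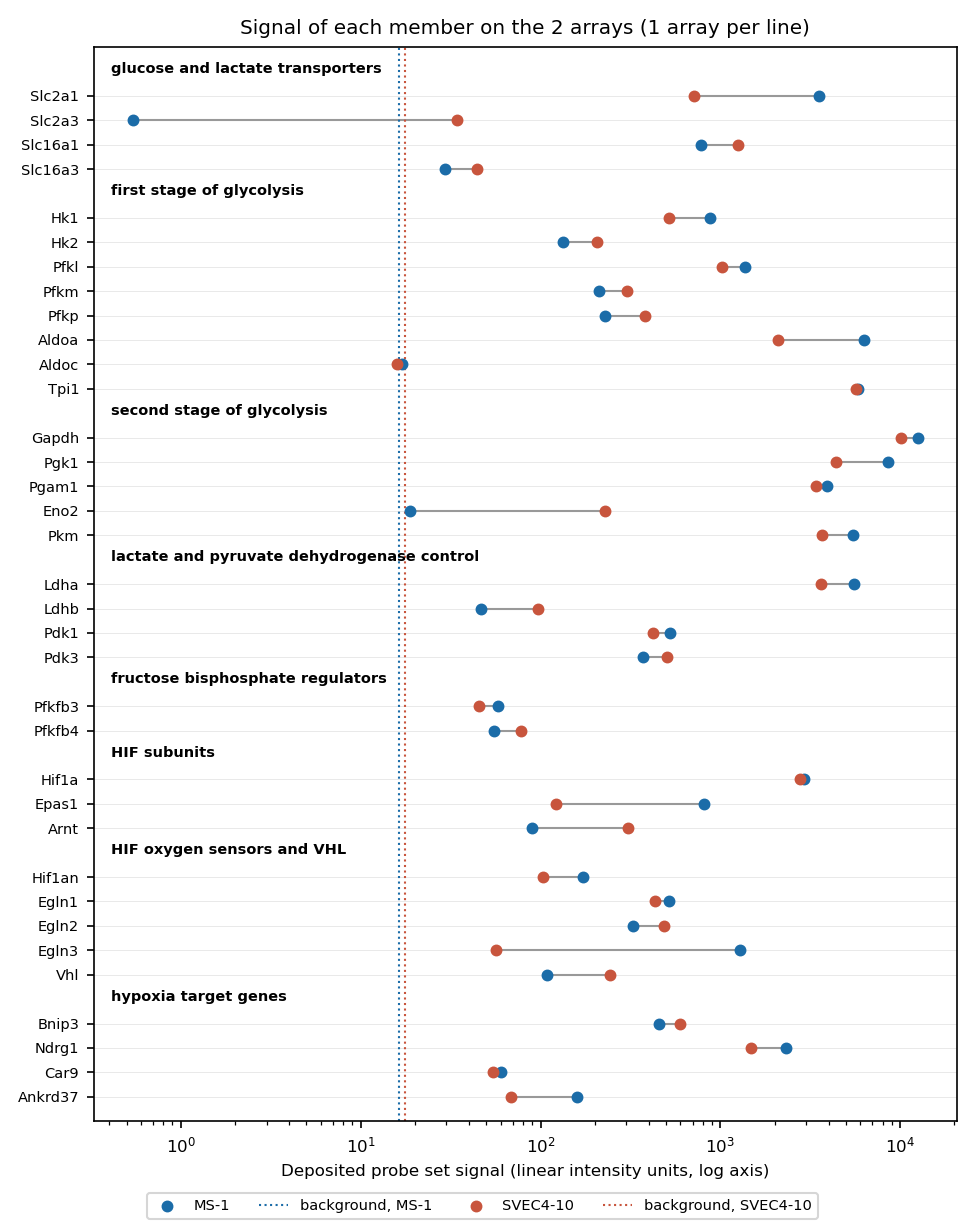
Deposited signal of the probe set used for each of the 35 members in MS-1 (blue) and the SVEC4-10 array (red), on a log axis, grouped by role, with dotted lines at the background of each array. Egln3, Epas1, Slc2a1 and Aldoa lie well to the right in MS-1, Eno2 and Arnt in SVEC4-10, and Slc2a3 and Aldoc sit at or below the lines on 1 array.

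The HIF dimer recognises DNA around the letters RCGTG, where R is A or G. Only the form ACGTG was searched here, and core below means that form. To show gene starts with and without this core, the RefSeq promoter window (build GRCm38.p6, 250 bases before to 50 bases after the annotated start) is printed for the 4 members at least 2-fold higher in MS-1 that have one, for Ldha, and for Eno2, with the letters ACGTG on either strand in capitals. Where ACGTG lies on the opposite strand it reads CACGT, and both strands overlap in CACGTG.

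Egln3, chr12:54203825-54204124, minus strand: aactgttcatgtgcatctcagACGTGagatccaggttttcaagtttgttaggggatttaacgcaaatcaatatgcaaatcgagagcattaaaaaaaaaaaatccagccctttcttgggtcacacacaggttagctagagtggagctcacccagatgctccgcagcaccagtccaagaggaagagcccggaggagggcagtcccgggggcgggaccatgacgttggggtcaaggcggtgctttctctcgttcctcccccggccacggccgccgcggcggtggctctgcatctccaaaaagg
Slc2a1, chr4:119108495-119108794, plus strand: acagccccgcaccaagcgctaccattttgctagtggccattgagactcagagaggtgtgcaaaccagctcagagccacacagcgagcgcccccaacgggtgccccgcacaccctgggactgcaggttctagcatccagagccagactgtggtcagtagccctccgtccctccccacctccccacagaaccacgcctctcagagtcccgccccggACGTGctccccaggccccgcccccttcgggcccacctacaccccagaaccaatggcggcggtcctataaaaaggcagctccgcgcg
Ankrd37, chr8:45999801-46000100, minus strand: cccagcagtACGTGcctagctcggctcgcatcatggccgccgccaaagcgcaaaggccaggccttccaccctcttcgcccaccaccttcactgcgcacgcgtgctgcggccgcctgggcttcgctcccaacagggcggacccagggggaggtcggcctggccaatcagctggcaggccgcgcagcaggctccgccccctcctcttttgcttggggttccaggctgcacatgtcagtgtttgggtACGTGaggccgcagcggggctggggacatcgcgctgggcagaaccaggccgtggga
Aldoa, chr7:126799205-126799504, minus strand: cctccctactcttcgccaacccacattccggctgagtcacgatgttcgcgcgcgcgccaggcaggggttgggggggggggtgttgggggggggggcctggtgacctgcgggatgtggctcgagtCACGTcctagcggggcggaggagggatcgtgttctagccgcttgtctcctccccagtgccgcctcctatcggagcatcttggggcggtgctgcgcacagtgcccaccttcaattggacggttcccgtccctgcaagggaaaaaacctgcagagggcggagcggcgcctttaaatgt
Ldha, chr7:46845554-46845853, plus strand: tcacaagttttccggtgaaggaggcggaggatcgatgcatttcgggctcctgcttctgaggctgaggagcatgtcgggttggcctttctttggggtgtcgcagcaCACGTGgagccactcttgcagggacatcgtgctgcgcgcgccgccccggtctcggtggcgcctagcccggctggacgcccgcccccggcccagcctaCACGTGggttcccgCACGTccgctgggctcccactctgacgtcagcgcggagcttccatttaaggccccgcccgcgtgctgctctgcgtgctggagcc
Eno2, chr6:124769624-124769923, minus strand: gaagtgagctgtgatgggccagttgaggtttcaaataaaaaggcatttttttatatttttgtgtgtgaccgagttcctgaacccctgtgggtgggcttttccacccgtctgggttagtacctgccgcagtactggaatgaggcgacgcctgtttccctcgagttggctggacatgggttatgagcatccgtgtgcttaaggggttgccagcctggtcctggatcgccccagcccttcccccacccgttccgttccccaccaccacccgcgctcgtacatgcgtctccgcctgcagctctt

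Each of these 4 members higher in MS-1 holds the core in at least 1 window: Egln3 has 1 match, whose first base is at -229 from the start, Slc2a1 has 1 at -36, Aldoa has 1 at -126 and Ankrd37 has 2, at -241 and -6. Aldoa has 3 windows, of which 2 hold the core and 1 does not, and the one printed is the first with a match. No window is printed for Epas1 or Slc2a3. Of the members higher in SVEC4-10, Eno2, Ldhb, Arnt and Vhl have windows, and 0 of these 4 hold ACGTG. The windows of Ldhb and Arnt do hold the other form, GCGTG, which was not counted for any gene. A window without ACGTG is therefore not shown to lack a HIF core. The core was not limited to members that differed, since 18 of the 24 members within 2-fold that have a window also hold it, among them Ldha with 5 matches in the window printed and 0 in its other window. Counting a gene once if any of its windows matched, 22 of 32 measured members (68.8%) hold the core, against 29.2% of 10160 measured genes, and 19.6% of all 32851 windows do. Among all measured genes with a window, the share was 26.1% for those at least 2-fold higher in MS-1 and 26.2% for those higher in SVEC4-10. Some members were listed because they are known HIF targets, and a match is a run of letters and not a measured binding site.

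Entry and exit of sugar and lactate came first. Slc2a1, the glucose carrier GLUT1, had signals of 3546 in MS-1 and 714 in SVEC4-10, 4.97-fold higher in MS-1. Its other probe sets gave signals of 2830 and 471, and of 2142 and 314, so all 3 lay on the same side, with log2 ratios from -2.77 to -2.31. Slc2a3, the higher-affinity carrier GLUT3, had the opposite direction. It was below background in MS-1 (0.543) and had a signal of 34.4 in SVEC4-10, at least 2.11-fold higher there. A fold written as "at least" sets a signal against the background level of the other array (16.3 on MS-1 and 17.6 on SVEC4-10). Only 1 of the 4 Slc2a3 probe sets passed background on either array, so this is a faint signal, and with a doubled background the gene was no longer measured. Slc16a1 and Slc16a3, the lactate and proton carriers MCT1 and MCT4, differed by less than 2-fold, with signals of 782 and 1260, and of 29.5 and 44.6, in MS-1 and SVEC4-10 (log2 ratios 0.69 and 0.60).

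In the first stage of glycolysis, which primes and splits glucose, 1 of 8 measured enzymes was at least 2-fold apart. The share under 2-fold was 87.5%, against 72.6% of all measured genes. Aldoa, the aldolase that cleaves fructose bisphosphate, had signals of 6263 and 2101 in MS-1 and SVEC4-10, 2.98-fold higher in MS-1. All 5 Aldoa probe sets were lower in SVEC4-10, 4 of them between -1.75 and -1.58, while the dimmest gave -0.60. All 5 belong to the class that can cross-hybridise with related sequences. Aldoc, the brain-type aldolase, was at background, with signals of 17.0 and 15.9. Tpi1, which interconverts the triose phosphates, had signals of 5828 and 5652, a log2 ratio of -0.04 that is well inside the error.

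Hexokinase and phosphofructokinase are encoded by several genes, and these leaned in different directions without passing 2-fold. Hk1, the widely expressed hexokinase, had signals of 877 and 515 (log2 ratio -0.77, and -1.05 at its second probe set). Hk2, the inducible hexokinase, had signals of 133 and 207 (0.64). Pfkl, the liver-type phosphofructokinase, had signals of 1369 and 1016 (-0.43), whereas Pfkm, the muscle type, had 212 and 302 (0.51) and Pfkp, the platelet type, had 227 and 383 (0.75, and 1.10 at a dimmer probe set). Pfkm turned to -0.03 with poly-A scaling. Pfkfb3 and Pfkfb4, whose products set the level of an activator of phosphofructokinase, were faint and under 2-fold apart, with signals of 58.3 and 45.4, and of 55.0 and 78.2.

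**Figure D2:**
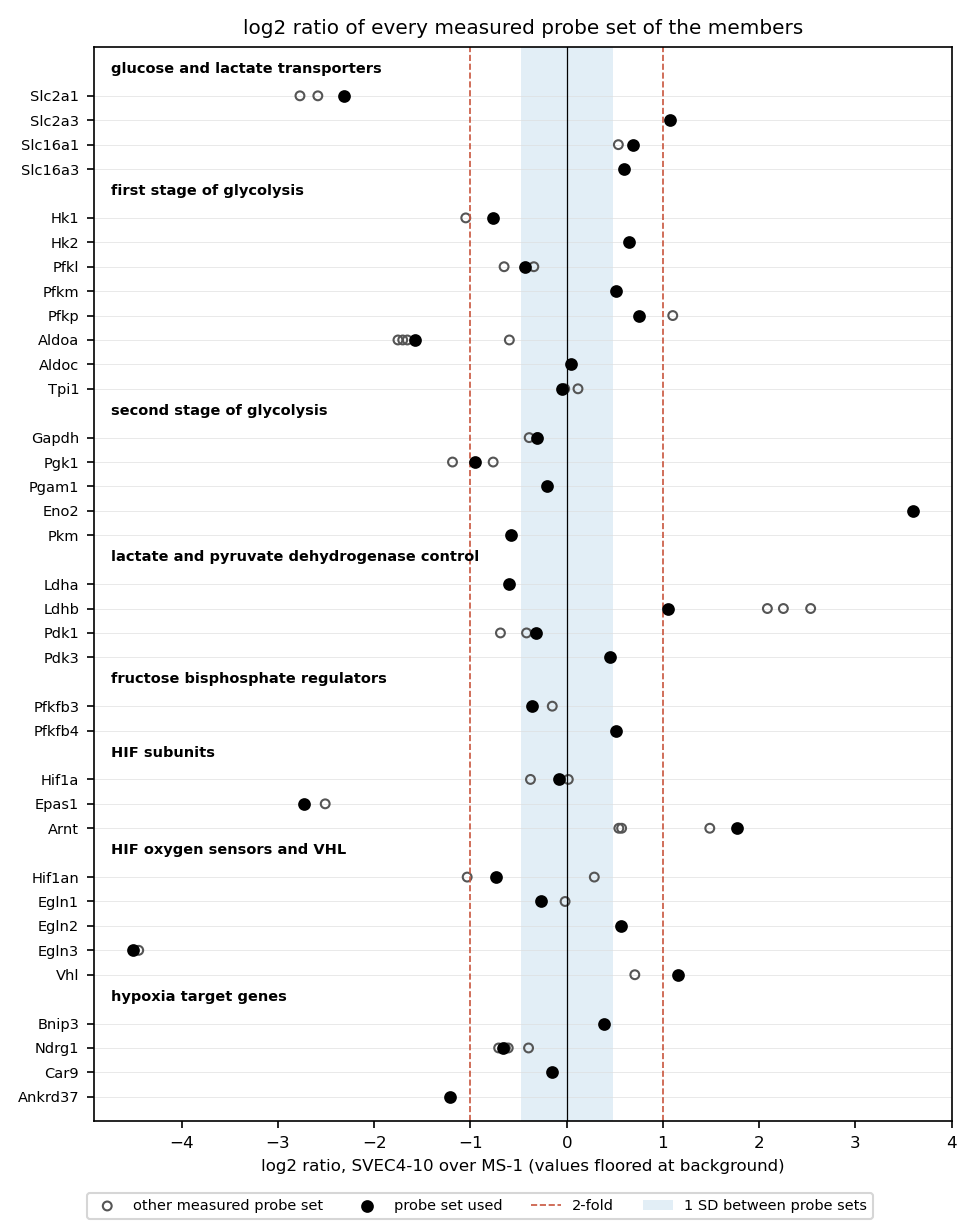
The log2 ratio of SVEC4-10 over MS-1 for each of the 73 measured probe sets of the members, with the probe set used as a filled point, the others as open points, dashed lines at 2-fold and a shaded band of 1 SD between probe sets (0.48) either side of 0. The points of Egln3, Epas1 and Slc2a1 lie together beyond -2, while those of Arnt, Aldoa and Ldhb are spread.

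In the second stage, which yields ATP, Eno2 stood apart from the other measured enzymes. Eno2, the enolase typical of neurons, had a signal of 18.9 in MS-1, just above background, and of 229 in SVEC4-10, 12.1-fold higher there. With a doubled background its log2 ratio of 3.60 became 2.81, as the MS-1 signal then counted as background. It had 1 probe set, so no second reading of it was at hand, and Eno1, the common enolase, was not analysed here. The other 4 enzymes leaned towards MS-1 and stayed under 2-fold. Gapdh, which oxidises the triose phosphate, had signals of 12504 and 10117 at the 5' control probe set (log2 ratio -0.31), and its 3 probe sets ranged from -0.39 to -0.30. The ratio of its 3' to its 5' signal was 0.809 in MS-1 and 0.812 in SVEC4-10.

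Pgk1, the first ATP-yielding enzyme of the pathway, had signals of 8550 and 4402. Its log2 ratio of -0.96 lay just under 2-fold. Its other probe sets, both of the class that can cross-hybridise, gave -1.19 and -0.76. Pgam1, the mutase that follows, had signals of 3916 and 3396 (-0.21), and Pkm, the pyruvate kinase of proliferating and muscle cells, had 5483 and 3667 (-0.58). Counting both stages with the lactate dehydrogenases, 15 of 17 enzymes were measured, with a median log2 ratio of -0.21. At least 2-fold higher were 2 in SVEC4-10 (13.3%) and 1 in MS-1 (6.67%), against 15.3% and 12.1% of all measured genes. The other 12 (80%) passed on neither, near the 72.6% of all measured genes.

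The lactate dehydrogenase subunits shifted against each other. Ldha, the subunit that favours making lactate, had signals of 5539 in MS-1 and 3646 in SVEC4-10 (log2 ratio -0.60). Ldhb, the subunit of the form found in heart, had signals of 46.7 and 96.8, 2.07-fold higher in SVEC4-10, which narrowly missed 2-fold with quantile normalization (log2 ratio 0.95). Its 3 other probe sets gave larger ratios, from 2.09 to 2.54, with signals of 77.6 to 94.4 in SVEC4-10. In MS-1 their signals were 0.362 to 19.0. There 2 of the 3 were below background, so the ratios of these 2 are lower bounds. The probe sets at 2.54 and 2.09 belong to the class that can cross-hybridise with related sequences. Pdk1 and Pdk3, kinases that hold pyruvate back from the mitochondrion by switching off pyruvate dehydrogenase, were under 2-fold apart, with signals of 527 and 423 for Pdk1 (-0.32) and of 370 and 504 for Pdk3 (0.45).

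Among the HIF subunits, the alpha subunits did not move alike. Epas1, which encodes the alpha subunit prominent in endothelium, had signals of 808 in MS-1 and 122 in SVEC4-10, 6.62-fold higher in MS-1. Its second probe set gave 106 and 18.5, a log2 ratio of -2.51 beside -2.73. Hif1a, the broadly expressed alpha subunit, had signals of 2916 and 2755, a log2 ratio of -0.08 that lies within the error, with its other probe sets at 0.02 and -0.38. Arnt, the shared partner, had signals of 89.9 and 306, 3.41-fold higher in SVEC4-10. Its other measured probe sets leaned the same way, at 1.49, at 0.57, and at 0.54 or more for 1 that was below background in MS-1.

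Of the oxygen sensors, Egln3 had the largest difference of all 35 members. Egln3 encodes a prolyl hydroxylase that is itself induced by HIF, and its signal was 1291 in MS-1 and 56.7 in SVEC4-10, 22.8-fold higher in MS-1. A second probe set gave 401 and 18.4, with log2 ratios of -4.45 and -4.51 between the pair. Egln1, the main prolyl hydroxylase of normal culture, had signals of 520 and 431 (-0.27), and Egln2, a further one, had 328 and 486 (0.57). Hif1an, the asparagine hydroxylase that curbs HIF activity, had signals of 171 and 103 (-0.74), with -1.03 at a second probe set, while its dimmest one was below background in MS-1 (14.2) and barely above it in SVEC4-10 (19.9). Vhl, the substrate-binding part of the ubiquitin ligase, had signals of 108 and 242, 2.24-fold higher in SVEC4-10, with 0.71 at its second probe set and 0.93 as the mean of both, under 2-fold.

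Of the listed HIF target genes, 1 of 4 measured was at least 2-fold apart. The share under 2-fold, 75%, was near the 72.6% of all measured genes. Ankrd37, an ankyrin-repeat gene induced by hypoxia, had signals of 159 and 69.0, 2.31-fold higher in MS-1, from 1 probe set. Ndrg1, a stress-response gene, had signals of 2321 and 1470, and its 5 probe sets all lay between -0.71 and -0.40. Bnip3, a mitophagy receptor, had signals of 456 and 598 (0.39). Car9, the carbonic anhydrase often used as a marker of hypoxia, had signals of 60.5 and 54.5 (-0.15). The ratios of these 4 ran from -1.21 to 0.39.

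To compare related genes without the scaling between arrays, the log2 ratio of 1 gene was subtracted from that of another in 12 pairs of the same family or complex. A factor common to a whole array cancels in such a difference, whose error was 0.68. The pairs were chosen after the values were seen and are a description: the SD of the log2 ratio over all genes, 1.38, is itself above this error, and no share over other pairs was computed. From MS-1 to SVEC4-10 the difference was -4.24 for Egln3 against Egln1 and -2.64 for Epas1 against Hif1a. In the other direction, Slc2a3 gained at least 3.39 on Slc2a1, Arnt 1.85 on Hif1a, Ldhb 1.65 on Ldha and Hk2 1.41 on Hk1. These 6 differences were over 2 errors, Hk2 against Hk1 narrowly, as it was 1.33 and under 2 errors with quantile normalization. The error does not cover the Slc2a3 ratio, which was set against background in MS-1. With the probe sets of smallest ratio, Arnt against Hif1a had a lower bound of 0.53, since that Arnt probe set was below background in MS-1. With the mean over probe sets, Arnt gave 1.09 and Hif1a -0.15, a difference that was also under 2 errors. An Arnt probe set above background on both arrays gave 0.57. The other 6 differences, among them 1.18 for Pfkp against Pfkl and 0.94 for Pfkm against Pfkl, were under 2 errors, and Slc16a3 against Slc16a1 was -0.09.

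**Figure D3:**
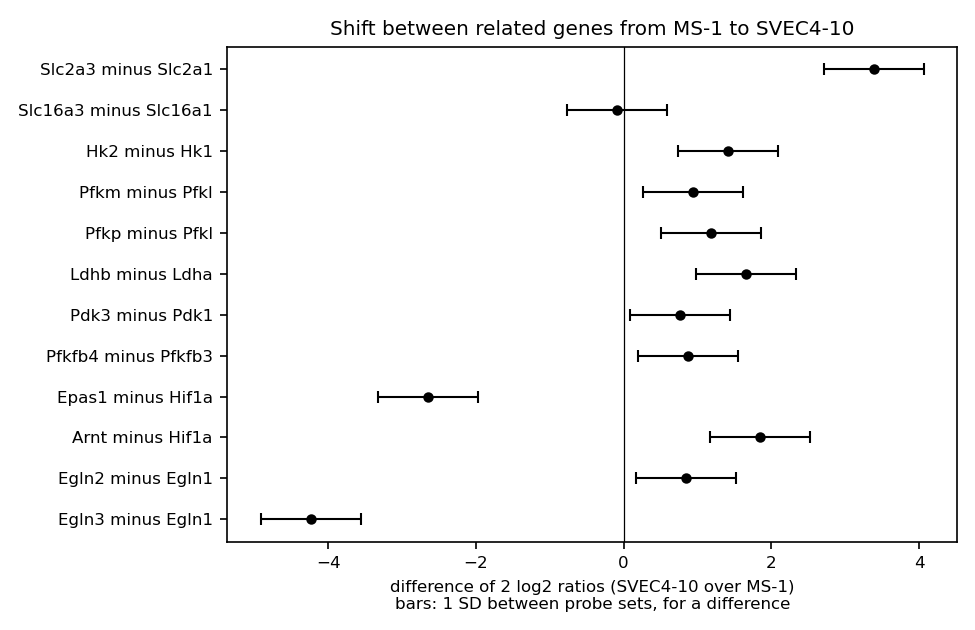
Difference between the log2 ratios (SVEC4-10 over MS-1) of related genes in 12 pairs, with bars of 1 SD between probe sets for a difference (0.68). Epas1 against Hif1a (-2.64) and Egln3 against Egln1 (-4.24) lie far to the left and Slc2a3 against Slc2a1 (3.39, a lower bound) furthest to the right.

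Genes that feed from or into the same pathways were read from further lists. Of 19 other isoforms of these enzymes, many of them restricted to liver, muscle or testis, 10 were measured, and only Pfkfb2 passed 2-fold, with signals of 19.6 and 50.2 (2.56-fold higher in SVEC4-10, and 0.37 on the log2 scale at its second probe set). Eno3, the muscle enolase, had signals of 331 and 510 (0.62), Bpgm 78.7 and 151 (0.94) and Tigar 160 and 103 (-0.63, with other probe sets at 0.78 and, against background, at -1.74 or below). Of 6 measured enzymes of the pentose phosphate pathway, which branches from glycolysis to make NADPH and ribose, 1 was at least 2-fold higher in MS-1 and 0 in SVEC4-10, with a median log2 ratio of -0.71. Taldo1, a transaldolase, had signals of 3423 and 1339, 2.56-fold higher in MS-1, and Tkt, Rpia and Pgls gave -0.92, -0.72 and -0.69. Of 25 measured genes of pyruvate dehydrogenase and the citric acid cycle, 24 (96%) were under 2-fold, with a median of -0.14. Their log2 ratios ran from -1.05 for Suclg2 to 0.71 for Pdha1, and Dlst and Dld lay at -0.90 and -0.88. Under 2-fold were also 90% of the other isoforms and 83.3% of the pentose phosphate enzymes, where 72.6% of all measured genes were.

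Other hypoxia targets moved in both directions. Of 28 measured genes of 30 listed, 8 were at least 2-fold higher in SVEC4-10 (28.6%), 4 in MS-1 (14.3%) and 16 on neither, where 15.3% and 12.1% of all measured genes passed, with a median of 0.01. Adm, the vasoactive peptide adrenomedullin, gave 467 in MS-1 and a signal under background in SVEC4-10, a difference of at least 26.5-fold. Angptl4, an inhibitor of lipoprotein lipase, was at least 22.6-fold higher in MS-1 (signal 398 there, and under background in SVEC4-10). The other members of this list at least 2-fold higher in MS-1, Stc1 (at least 6.07-fold, against background in SVEC4-10) and Hmox1 (log2 ratio -1.72), were named after their values were seen. Lox and Plod2, which cross-link and hydroxylate collagen, were at least 254-fold and 7.05-fold higher in SVEC4-10, with signals of 4143 and 1376 there. The collagen genes named above lay in the same direction, and their part in this was not tested. Vegfa, the endothelial growth factor and a textbook HIF target, had signals of 124 and 330, a log2 ratio of 1.41. Its second probe set gave 0.63, under 2-fold, and Vegfa was also named after its values were seen. The rest at least 2-fold higher in SVEC4-10 were Ak4 (2.70), Car12 (1.66), Rora (1.38), Stc2 (1.12) and P4ha1 (1.10), named likewise. Ak4, Car12 and Stc2 were below background in MS-1, so these ratios are lower bounds. The lowest ratio among their probe sets was 0.44 for Ak4, 0.24 for Rora, -0.22 for Stc2 and 0.85 for P4ha1.

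Of 7 measured further genes of the HIF pathway, 2 (28.6%) were at least 2-fold higher in SVEC4-10 and 0 in MS-1. The shares of all measured genes were 15.3% and 12.1%. Arnt2, a relative of Arnt, had signals of 19.8 and 93.3, but the smallest ratio among its 3 probe sets was -0.02. Hif3a had 16.6, barely over the MS-1 background of 16.3, and 39.7. Doubling the background lowered the Hif3a ratio from 1.26 to 0.29. The other measured Hif3a probe set gave 0.89, under 2-fold. Crebbp and Eloc gave -0.38 and -0.37, with probe sets of both signs (up to 0.44 and 1.68). Of 7 measured cell cycle markers, 0 were at least 2-fold apart in either direction, with a median of 0.08. Of all measured genes, 72.6% were under 2-fold. Tyms, Cdk1, Mcm2 and Mki67 gave 0.86 (-0.04 at a second probe set), 0.65, 0.47 and -0.65.

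**Figure D4:**
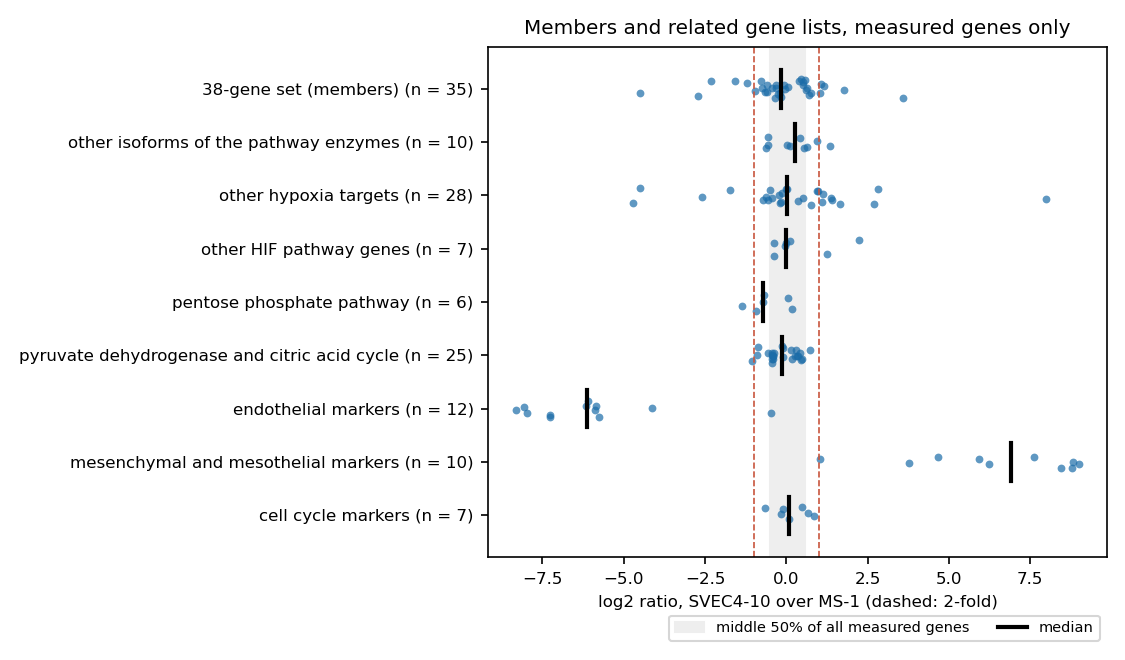
The log2 ratio of SVEC4-10 over MS-1 for each measured gene of the 38-gene set and of the related lists, with the median as a black bar, dashed lines at 2-fold and the middle 50% of all measured genes (-0.50 to 0.58) shaded. The set (median -0.15) and the pyruvate dehydrogenase and citric acid cycle list (median -0.14) centre near 0. The pentose phosphate list lies lower, with a median of -0.71. The endothelial markers (median -6.14) and the mesenchymal and mesothelial markers (median 6.93) lie far to the left and right. Ratios of genes below background on 1 array, 9 of the endothelial and 8 of the mesenchymal and mesothelial markers among them, are bounds, and so both medians understate the difference.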

How the data were processed

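Per the labels' protocols, total RNA came from Trizol lysates of cultures no later than passage 5, and 6 µg of it went into biotinylated cRNA for 1 Affymetrix array per line. The authors deposited 1 linear intensity per probe set and array, whose summary method is not given in the sources used here. On each array the 2%-trimmed mean was 150.001, the mark of scaling by 1 factor, and no further scaling was applied. Such scaling assumes equal total signal.

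Of 45101 probe sets, 34945 were annotated to 1 gene (34741 updated through the RefSeq table of GRCm38.p6), 932 to several, and 9160 had no name here. As background served the 95th percentile over 129 probe sets for smell and taste receptors and hair keratin-associated proteins. Values were raised to background before the log2 ratio was taken. Each gene was read from the measured probe set whose log2 signal was highest on average, with the class open to cross-hybridisation used only where no other was measured. The error of a log2 ratio was computed from the differences between the 2 brightest probe sets per gene. The number of arrays limits the precision. The members, lists and rules were chosen with earlier results of these data known. Of each further list, up to 4 genes with the largest absolute ratio were named, and exceptions are marked. The family pairs and the promoter motif were chosen after the values were seen. Alternatives covered the scaling, the background, the choice of probe set and the fold threshold. The steps were tested on simulated data. Python 3.11.15, numpy 2.4.6, pandas 2.3.3 and matplotlib 3.10.9 were used.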

Additional observations from a re-analysis of the deposited data

How the results depend on the processing

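The counts of 5 members at least 2-fold higher on each array became 2 in SVEC4-10 and 11 in MS-1 with poly-A scaling, where the members' median log2 ratio was -0.69. The 21 poly-A control probe sets had a mean log2 ratio of 0.54. With the probe set of smallest ratio the counts were 3 in SVEC4-10 and 4 in MS-1, as Arnt, Vhl and Aldoa fell under 2-fold. Of all measured genes, 11.1% and 8.59% passed in that setting. With unique probe sets only, which left 26 members, the counts were 2 and 4, where 15.4% and 12.3% of all genes passed. Slc2a3, Aldoa, Eno2 and Ldhb had no measured unique probe set and dropped out. With a 4-fold threshold the counts were 1 and 3. Quantile normalization, median centring, background at the 40th percentile, doubled background, no background floor and the mean over probe sets gave counts of 4 or 5 and medians between -0.21 and -0.11, with Ldhb lost under quantile normalization, Slc2a3 under doubled background and Vhl under the mean over probe sets. Of 304 single values of the members under an alternative, 43 moved by more than the error of 0.48. Poly-A scaling shifts every ratio by 0.54, which exceeds this error, so each member's value under it is among the 43 by construction. Egln3, Epas1, Slc2a1 and Ankrd37 kept a difference of 2-fold or more towards MS-1 in every alternative, and Ankrd37 alone of these missed 4-fold. Eno2 did so in SVEC4-10 wherever it was measured (2.81 with doubled background), and its only probe set was not among the unique ones. Arnt2 turned from 2.24 to -0.018 with the probe set of smallest ratio, where another of its probe sets was used. Values near background, such as those of Slc2a3 and Aldoc, are limited by signal. No paired analysis was possible because each line has 1 array.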
